A study of Mus musculus with 10 samples.

Results

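The miR-30 family was followed here through 8 of the 1340 mature miRNAs in a small RNA sequencing table of the mouse eye wall. The 8 were taken by name: the 5p arms mmu-miR-30a-5p, mmu-miR-30b-5p, mmu-miR-30c-5p, mmu-miR-30d-5p and mmu-miR-30e-5p, and the 3p arms mmu-miR-30a-3p, mmu-miR-30b-3p and mmu-miR-30e-3p, where mmu stands for mouse and is left out below. Every one of them was found in the table. The labelled tissue was RPE/choroid/sclera, that is the pigment epithelium, the vascular layer and the white coat of the eye, although the extraction protocol speaks of retinae. All mice were C57BL/6J, wild type, and 34 days old. Starting at postnatal day 24, each mouse had worn a goggle with a -20 dioptre lens before one of its eyes for 10 days, while the fellow eye had none. The groups are 5 right and 5 left eyes that share the numbers 61, 64, 65, 66 and 68 in their titles. All have the same strain, genotype and age. The labels do not state which eye wore the lens, so no library can be called treated or untreated.

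A miRNA hairpin is cut into a 5p and a 3p arm. The arm that is kept by an Argonaute protein guides it to mRNAs that pair with the seed, bases 2 to 8 of the miRNA, and the other arm is mostly degraded. The miR-30 5p arms share a seed and are abundant in many epithelia and in vessels. They are known to bind the mRNA of connective tissue growth factor in rat heart cells, and that of the Notch ligand Dll4 in human endothelial cells and zebrafish.

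The hairpins lie in 3 neighbouring pairs. Mir30a and Mir30c-2 are 19361 bases apart on chromosome 1, plus strand. Mir30c-1 and Mir30e are 2983 bases apart on chromosome 4, minus strand, in an intron of Nfyc, which encodes a subunit of the transcription factor NF-Y. Mir30b (chromosome 15, 68337415 to 68337510) and Mir30d (68341208 to 68341289) are 3697 bases apart on the minus strand. In the GENCODE annotation of GRCm38, Mir30c-2 lies in an exon of the long noncoding RNA gene Gm27028 and Mir30d in an exon of Gm20732.

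Mature sequences from RefSeq (build GRCm38.p6) were matched for 5 of the 8 members and 2 of 3 further 3p arms. They are shown because the family is defined by the seed, here in capitals, and because its members differ in few bases outside it. The first 4 have the seed of the 5p arms, and the last 4 are 3p arms:
miR-30a-5p: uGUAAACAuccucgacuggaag
miR-30e-5p: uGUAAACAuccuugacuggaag
miR-30c-5p: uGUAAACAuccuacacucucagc
miR-384-5p: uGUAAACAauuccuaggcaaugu
miR-30a-3p: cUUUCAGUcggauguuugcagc
miR-30e-3p: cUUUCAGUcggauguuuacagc
miR-30c-1-3p: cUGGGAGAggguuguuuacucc
miR-30c-2-3p: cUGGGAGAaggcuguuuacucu

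The mature miR-30a-5p (chromosome 1, 23272274 to 23272295) and miR-30e-5p (chromosome 4, 120772660 to 120772681) differ by 1 base of 22, C13U, counted from the 5′ end of miR-30a-5p. Their 3p arms also differ by 1 base, G18A counted from the 5′ end of miR-30a-3p. A read that is short or carries an error at that base could be given to either, and the sources used here do not give how such reads were counted. From miR-30c-5p both differ by 5 of the 22 bases compared. The 3p arms fall into separate seeds, UUUCAGU in miR-30a-3p and miR-30e-3p and UGGGAGA in both miR-30c 3p arms. Of the 1135 miRNAs of the table with a RefSeq sequence, 4 (0.352%) hold the seed GUAAACA: miR-30a-5p, miR-30c-5p, miR-30e-5p and miR-384-5p. No RefSeq sequence was matched for miR-30b-5p and miR-30d-5p, so they could not enter this count.

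miR-30c-5p comes from 2 hairpins, Mir30c-1 at chromosome 4, 120769534 to 120769622 (minus strand), and Mir30c-2 at chromosome 1, 23291701 to 23291784 (plus strand). They are printed with the mature arms in capitals, because the same 5p arm is joined to 3p arms that differ by 3 bases:
Mir30c-1: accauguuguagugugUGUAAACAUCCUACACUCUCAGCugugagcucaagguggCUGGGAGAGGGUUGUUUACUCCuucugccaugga
Mir30c-2: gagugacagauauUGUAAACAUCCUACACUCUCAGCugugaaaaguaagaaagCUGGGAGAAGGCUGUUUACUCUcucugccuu
The table has a single entry for miR-30c-5p, so its signal cannot be divided between chromosomes 1 and 4.

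The deposited values are a normalised signal whose sum is nearly the same in all libraries (11878152 to 11879036). Between 1033 and 1105 miRNAs were above 0 in a library. Read depth is unknown, so no counting interval is given. Nearly equal values recur at the same rank, and at each of the 50 highest ranks the 10 values spanned less than 1% of their mean. An abundant miRNA therefore moves in steps from rank to rank. Markers of the labelled tissue were present: miR-204-5p and miR-211-5p, those of the pigment epithelium, summed to 1959 to 1989 k. All 33 markers of 8 cell type lists were above 0 in every library. The right eye of number 68 stood apart in its summed retina and neuron miRNAs, at 1332 k (k for 1000 units of signal), where the other 9 libraries had 190 to 474 k. In such bulk tissue, fewer cells of a type and less RNA per cell cannot be told apart.

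The 5p arms formed a ladder that was the same in all 10 libraries. miR-30a-5p led at 289 ± 72.6 k (SD, n = 10), followed by miR-30d-5p at 122 ± 19.6 k, miR-30c-5p at 63.2 ± 16.7 k, miR-30e-5p at 31.6 ± 4.40 k and miR-30b-5p at 15.7 ± 4.56 k. Each step was about the same size, with median ratios of 2.28, 2.04, 2.02 and 2.07 from one member to the next. No neighbours overlapped, since the lowest value of the higher member exceeded the highest value of the lower one at every step. The closest were miR-30c-5p, lowest at 43.0 k, and miR-30e-5p, highest at 38.7 k.

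Together the 5p arms held 3.31% to 5.74% of the signal of a library. miR-30a-5p alone made 49.6% to 60.4% of the summed 5p signal, and miR-30d-5p 18.8% to 29.7%. The share of miR-30c-5p ran from 9.58% to 14.4%, that of miR-30e-5p from 5.02% to 6.93%, and that of miR-30b-5p from 2.44% to 3.83%. miR-384-5p, encoded on the X chromosome and carrying the same seed, had a signal of 37.1 to 114 in 9 libraries and 317 in the right eye of number 68, the library with the high retinal sum. The summed 5p signal was at least 1904 times that of miR-384-5p in every library. miR-30f, which is annotated on the strand opposite to Mir30e, had a signal of 0.533 to 8.71 and did not reach the mean of 10 asked for testing.

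The 3p arms were far lower, apart from miR-30a-3p (chromosome 1, 23272315 to 23272336). That arm had 13255 ± 1420 (SD, n = 10), close to miR-30b-5p. Its coefficient of variation of 10.7% was the lowest of the 8 members. Its rank nevertheless ran from 60 to 71, against 8 to 12 for miR-30a-5p, so this measure depends on the size of the rank steps. miR-30e-3p (chromosome 4, 120772618 to 120772639) had 484 ± 128 and miR-30b-3p 231 ± 49.9. Although miR-30e-3p exceeded miR-30b-3p within each of the 10 libraries, by 1.55 to 2.47 times, their ranges over libraries overlapped. The 3p arms outside the 8 were miR-30c-2-3p at 2214 ± 495, miR-30c-1-3p at 958 ± 241 and miR-30d-3p at 301 ± 45.7. The ratio of miR-30c-2-3p to miR-30c-1-3p stayed between 2.06 and 2.67.

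**Figure D1:**
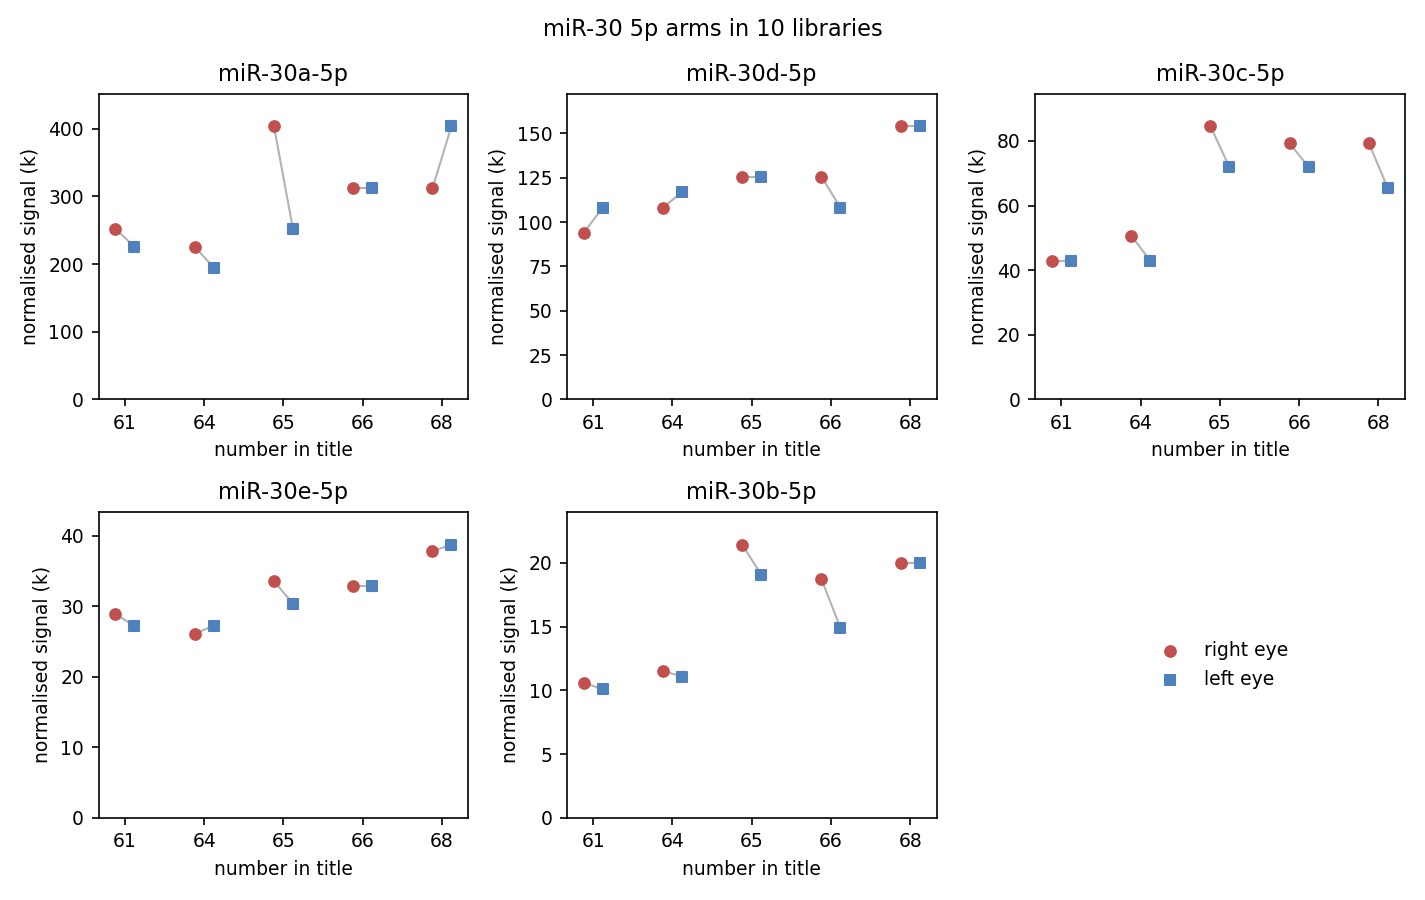
Normalised signal (k, 1000 units) of the 5 miR-30 5p arms by the number in the title, with a red circle for the right and a blue square for the left eye of each number joined by a line, each axis starting at 0. miR-30b-5p, miR-30c-5p and miR-30e-5p were lowest in the 4 eyes of numbers 61 and 64, and right and left eyes overlapped for every member.

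The first comparison set right against left eyes. In limma, with the number as a block, 0 of 588 miRNAs (0%) were called at an adjusted p of 0.05, and 13 had an unadjusted p under 0.05 (2.21%). All 8 members had passed the filter on low signal, and none passed the test. Among the 8, the unadjusted threshold was met by miR-30c-5p alone. Of the 5p arms 4 of 5 had the higher mean in right eyes, with a median log2 change of 0.12, and all 3 of the 3p members had the lower mean there, with a median of -0.12. Over all 588 miRNAs the median was 0.02, and 319 had the higher and 269 the lower mean in right eyes. Of the cell type lists, the 8 surface epithelium markers all had the lower mean in right eyes, with a median log2 change of -0.98 and none called in limma. They summed to 25.7 to 207 k in right eyes and 65.7 to 246 k in left eyes, and their part in the miR-30 values was not tested. Other lists leaned to 1 side too, with smaller medians. Striated muscle was lower in right eyes for 4 of 4 (median -0.16). Leukocyte markers were higher for 4 of 4 (0.10), and retina and neuron markers for 5 of 6 (0.19).

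miR-30c-5p had 43.0, 50.7, 84.5, 79.3 and 79.3 k in the right eyes of numbers 61, 64, 65, 66 and 68, against 43.0, 43.0, 71.8, 71.8 and 65.3 k in the left eyes. The right eye was higher in 4 numbers and tied in number 61, while the groups overlapped widely because the numbers differed more than the sides. Its log2 change was 0.18 (standard error 0.06), with unadjusted p = 0.0274 and adjusted p = 0.967 in limma.

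miR-30b-5p had 10.6, 11.5, 21.4, 18.7 and 19.99 k in right eyes 61, 64, 65, 66 and 68, against 10.1, 11.1, 19.1, 14.9 and 19.99 k in left eyes. It too was higher on the right in 4 numbers and tied in 1, here number 68. The log2 change was 0.12, with a 95% interval of -0.05 to 0.29 and adjusted p = 0.967 in limma, and it was 0.07 without number 66.

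The most abundant member, miR-30a-5p, had 252, 226, 404, 312 and 312 k in right eyes, against 226, 195, 252, 312 and 404 k in left eyes, in the same order of numbers. These are 5 values at ranks 8 to 12 of the table, and number 68 ran opposite to number 65. Its log2 change of 0.14 rested on number 65, and was -0.0004 without it and 0.26 without number 68 (adjusted p = 0.967 in limma with all numbers).

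For miR-30d-5p the right eyes had 94.0, 108, 126, 126 and 154 k and the left eyes 108, 117, 126, 108 and 154 k. Right eyes were higher in 1 number, lower in 2 and tied in 2, for a log2 change of -0.02. miR-30e-5p was also balanced, at 28.9, 26.1, 33.6, 32.9 and 37.9 k in right eyes and 27.2, 27.2, 30.4, 32.9 and 38.7 k in left eyes, a log2 change of 0.03. The 95% intervals ran from -0.19 to 0.15 for miR-30d-5p and from -0.12 to 0.17 for miR-30e-5p. Neither direction was stable, since miR-30d-5p turned to 0.03 without number 61 and 0.003 without number 64, and miR-30e-5p to -0.002 without number 65.

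miR-30e-3p, the 3p partner of miR-30e-5p, had the largest difference between sides among the members. Right eyes 61, 64, 65, 66 and 68 had signals of 494, 639, 313, 486 and 251, against 538, 649, 544, 513 and 415 in left eyes. It was lower on the right in all 5 numbers, as were 5 of the 588 miRNAs (0.85%), and the gaps of numbers 65 and 68 were the widest. The log2 change of -0.35 had a 95% interval of -0.70 to 0.005, unadjusted p = 0.0525 and adjusted p = 0.967 in limma. It ran from -0.24 to -0.43 with a single number left out. Right eye 68, the lowest value, was also the library with the high retinal sum, and the part of that sum in the result was not tested.

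miR-30b-3p had 290, 258, 202, 221 and 140 in right eyes and 268, 290, 225, 243 and 168 in left eyes, lower on the right in 4 of 5 numbers (log2 change -0.12, adjusted p = 0.967 in limma). miR-30a-3p, whose mean was 13201 ± 1115 in right and 13310 ± 1813 in left eyes (SD, n = 5 each), had a log2 change of -0.01. Of the 3 further 3p arms none passed either, with log2 changes of -0.06 for miR-30c-2-3p, -0.07 for miR-30c-1-3p and 0.12 for miR-30d-3p.

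**Figure D2:**
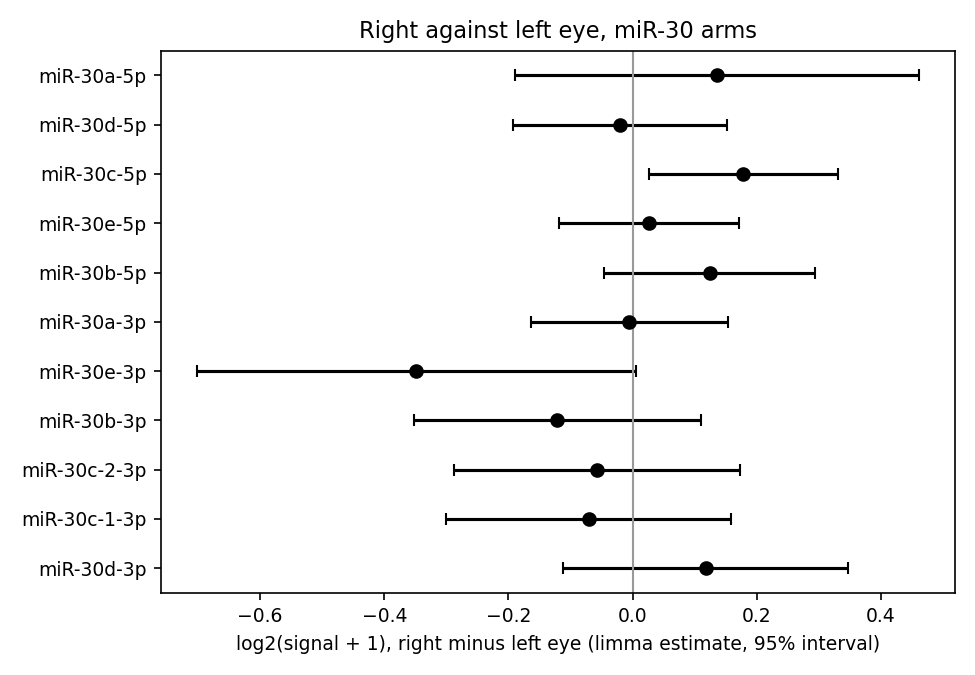
Estimated difference, right minus left eye, in log2(signal + 1) for the miR-30 5p arms (upper 5) and 3p arms (lower 6), with 95% intervals from limma (bars, not adjusted for the number of miRNAs). The interval of miR-30c-5p lay above 0 (0.03 to 0.33), those of the others included 0, and no member passed the adjusted test.

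The second comparison asked whether the kept arm of a hairpin differed between sides, as log2 of 5p over 3p signal. None of 158 hairpins passed in limma (0%), and 3 had an unadjusted p under 0.05 (1.9%). The miR-30 hairpins were not among those 3. In miR-30e the 5p arm exceeded the 3p arm 58.5, 40.9, 107, 67.8 and 151 times in right eyes, against 50.7, 42.0, 55.9, 64.2 and 93.4 times in left eyes. The ratio was higher in right eyes in 4 of 5 numbers, and the log2 difference of 0.38 had a 95% interval of -0.04 to 0.79 (adjusted p = 0.808 in limma) and was 0.23 without number 65. In miR-30b the difference was 0.25, with an interval of -0.03 to 0.52 (adjusted p = 0.808 in limma). In miR-30a it was 0.14 and turned to -0.02 without number 65. Its 5p arm was 14.3 to 30.7 times the 3p arm, the lowest ratio of the 4 hairpins that could be compared, where miR-30d reached 318 to 521 times.

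**Figure D3:**
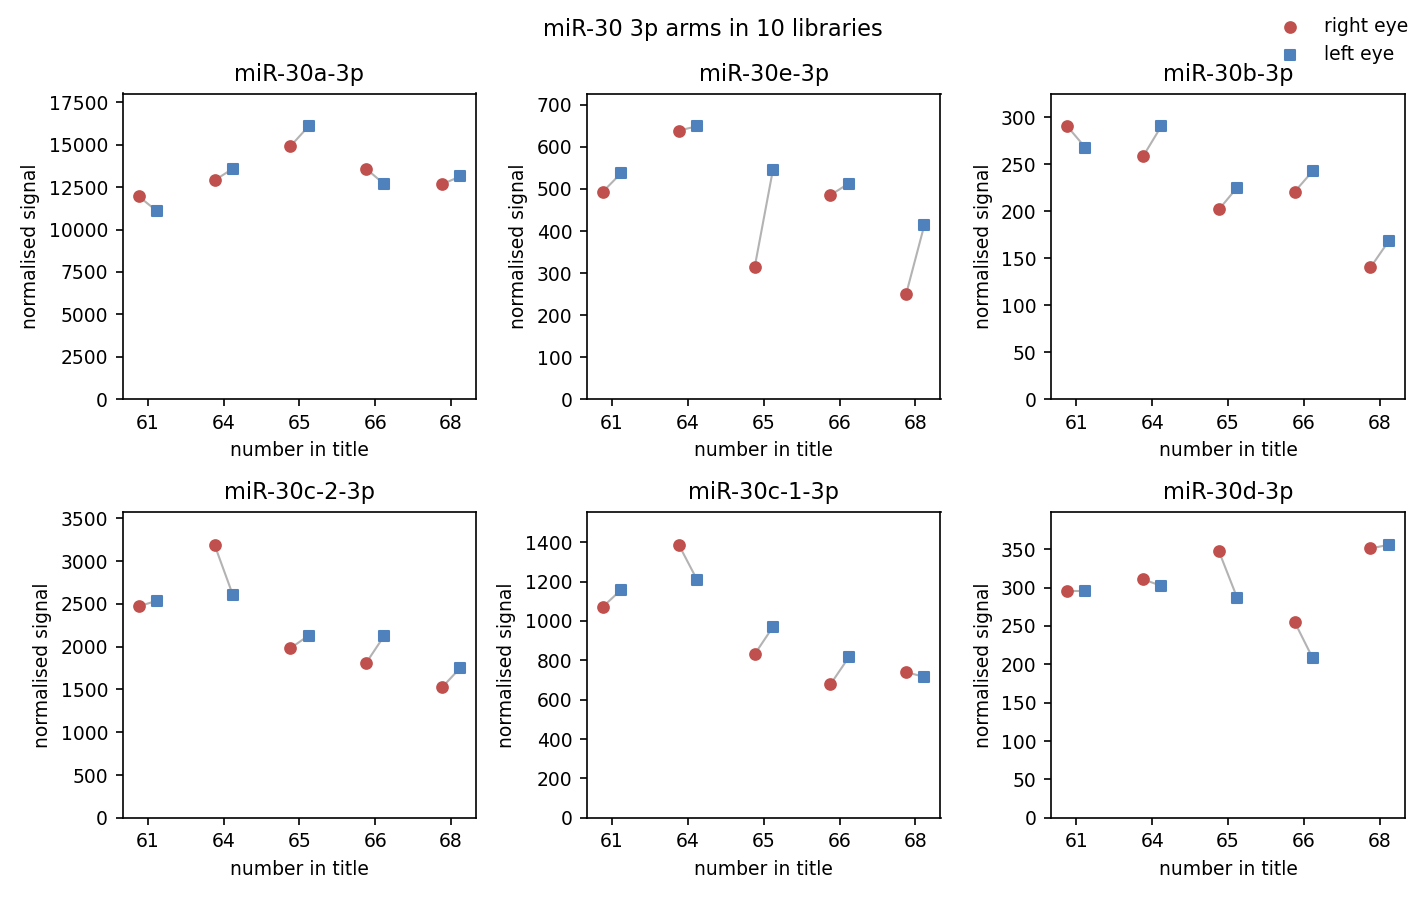
Normalised signal of the 6 miR-30 3p arms by the number in the title, drawn as for the 5p arms, each axis starting at 0. miR-30b-3p, miR-30c-1-3p and miR-30c-2-3p were highest in the 4 eyes of numbers 61 and 64, while miR-30e-3p was lower in the right eye of every number.

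The third comparison asked whether numbers differed by more than the eyes within a number. A moderated F test in limma, with side as a covariate, called 7 of the 588 miRNAs (1.19%), and 137 had an unadjusted p under 0.05 (23.3%). Of the 8 members miR-30b-5p and miR-30c-5p were called, both at adjusted p = 0.0261 in limma, and all 8 had an unadjusted p under 0.05. The other 5 called were let-7c-5p, let-7b-5p, let-7e-5p, miR-29c-3p and miR-664-5p, named here after their values were seen. That numbers differ in the miR-30, let-7 and miR-29 families was known before this test was chosen, so the test is no independent evidence of it.

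miR-30b-5p ran from 10.1 to 11.5 k in the 4 eyes of numbers 61 and 64 and from 14.9 to 21.4 k in the 6 eyes of numbers 65, 66 and 68. miR-30c-5p had 43.0 to 50.7 k and 65.3 to 84.5 k in the same eyes. Neither miRNA showed any overlap between these eyes, a divide that was seen in the values themselves and is given as a description, with no test. How many of the 588 miRNAs had the same divide was not counted, so it is not shown to be particular to miR-30. The means of the numbers spanned 0.97 (log2) for miR-30b-5p and 0.86 for miR-30c-5p, where right and left eyes of a number were at most 0.33 and 0.28 apart. miR-30e-5p was ordered alike, at 26.1 to 28.9 k and 30.4 to 38.7 k, but was not called (adjusted p = 0.0941 in limma). miR-30a-5p had a tie across the divide, at 252 k, and the ranges of miR-30d-5p overlapped (adjusted p = 0.210 for miR-30a-5p and 0.112 for miR-30d-5p in limma).

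Both calls were kept without number 66 and lost when any other single number was left out. Adjusted p in limma was 0.0186 for miR-30b-5p and 0.0250 for miR-30c-5p without number 66. Without any other single number it was 0.0797 to 0.115 for miR-30b-5p and 0.0797 to 0.106 for miR-30c-5p, and without right eye 68 it was 0.0938 for each. With no mean-variance trend both stood at 0.137. Summed signals of the erythroid and leukocyte lists were lowest in the 4 eyes of numbers 61 and 64 as well. Those of the other cell type lists overlapped. Endothelium had 198 to 219 k in these 4 eyes and 214 to 342 k in the other 6. Fibroblast and smooth muscle had 845 to 861 k and 858 to 1074 k in the same eyes. The erythroid list, miR-451a and miR-144-3p, summed to 0.986 to 1.16 k in the eyes of numbers 61 and 64 and 1.27 to 2.32 k in the other 6. The leukocyte list of 4 summed to 9.61 to 10.5 k and 11.2 to 15.6 k. Every member of both lists was above 0 in all libraries. Of the 33 markers in the 8 lists none was called between numbers, and 7 had an unadjusted p under 0.05 (21.2%, against 23.3% of all miRNAs). The part of any of these cell types in the miR-30 values was not tested. The labels do not say whether a number also marks a litter or a run.

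Part of the 3p arms ran the other way. miR-30b-3p had 258 to 290 in the eyes of numbers 61 and 64 and 140 to 243 in the others, and miR-30c-1-3p had 1073 to 1387 and 678 to 969. miR-30c-2-3p had 2473 to 3191 and 1524 to 2130. None of these 3 was called between numbers (adjusted p = 0.0941, 0.0934 and 0.0951 in limma, in that order). How many of all miRNAs had this order was not counted either. miR-30e-3p was highest in both eyes of number 64, at 639 in the right and 649 in the left eye, and its ranges overlapped. miR-30a-3p and miR-30d-3p followed neither order.

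The balance of the arms also varied between numbers. For miR-30b the 5p to 3p ratio was 36.5, 44.6, 106, 84.9 and 143 in right eyes 61, 64, 65, 66 and 68 and 37.7, 38.2, 84.8, 61.4 and 119 in left eyes. Both eyes of number 68 were the highest and those of numbers 61 and 64 the lowest. A moderated F test on the arm ratios, added after these values were seen, called 17 of the 158 hairpins (10.8%), and miR-30b had the smallest p of all (adjusted p = 0.0222 in limma). Without number 64, number 68 or right eye 68 it was not called, at adjusted p = 0.0851, 0.0942 and 0.106 in limma, in that order. miR-30e had adjusted p = 0.0663, miR-30a 0.295 and miR-30d 0.203 in limma.

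**Figure D4:**
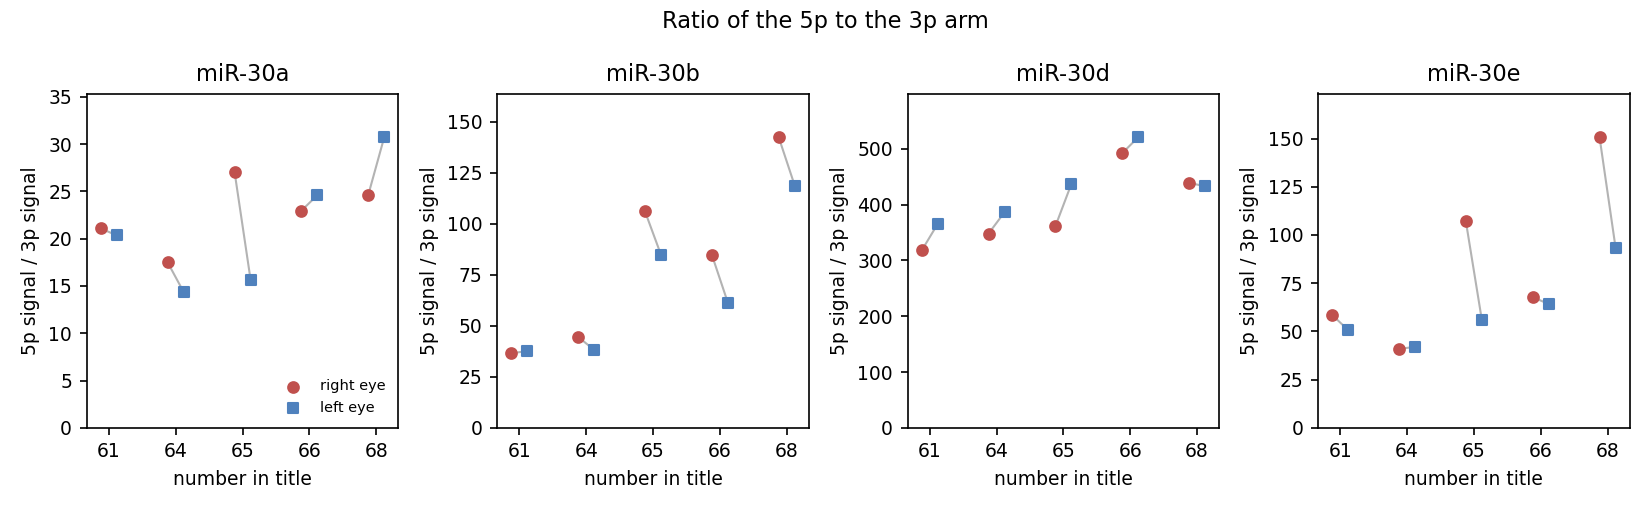
Ratio of 5p to 3p signal of the 4 miR-30 hairpins with both arms named, by the number in the title, with red circles for right and blue squares for left eyes and axes starting at 0. The ratio of miR-30b was highest in number 68, at 143 in the right and 119 in the left eye, and lowest in numbers 61 and 64.

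Within the family the 5p arms moved together across libraries. Over the 10 libraries, which are pairs of eyes and not independent, Pearson's r of log2(signal + 1) between 2 5p arms ran from 0.58 to 0.94 with a median of 0.80. The highest was between miR-30b-5p and miR-30c-5p, which come from different chromosomes. miR-30b-5p and miR-30d-5p, whose hairpins are neighbours, had r = 0.79. Between a 5p arm and any of the 6 3p arms r had a median of -0.72 and ran from -0.94 to 0.64. With miR-30a-3p r ran from 0.19 to 0.64, and with miR-30d-3p from -0.02 to 0.51. Within a hairpin it was 0.25 for miR-30a, -0.82 for miR-30b, 0.51 for miR-30d and -0.79 for miR-30e. The 3p arms of miR-30c-1 and miR-30c-2 had r = 0.94, although their hairpins lie on different chromosomes. These values share the rank steps of the table and are given as a description. No r of other miRNA pairs was set beside them, so moving together is not shown to be particular to the family.

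Against the summed 5p signal, 579 other miRNAs were compared in the same way. The highest r was with let-7c-2-3p (0.97), miR-98-3p (0.95) and miR-340-5p (0.95). The first pair are 3p arms of the let-7 and miR-98 family, and let-7c-2-3p ran from 96.4 in left eye 64 to 290 in left eye 68. The lowest r was with let-7c-5p (-0.95), miR-181d-5p (-0.93) and miR-106b-3p (-0.90). let-7c-5p, a guide of the let-7 family that represses growth genes, stood at 404 k in all 4 eyes of numbers 61 and 64. That value is a rank step, which miR-30a-5p held in right eye 65 and left eye 68. The r of let-7c-5p is therefore not free of the rank steps. In the other eyes it had 154, 195 and 117 k in right eyes 65, 66 and 68, and 226, 226 and 141 k in left eyes. Of the 9 let-7 and miR-98 guides, let-7g-5p alone had a positive r (0.93). The others ran from -0.62 for let-7f-5p to -0.95 for let-7c-5p. Of the miR-29 3p arms, which bind collagen mRNAs, r was 0.94 for miR-29a-3p, 0.82 for miR-29b-3p and 0.81 for miR-29c-3p. From the highest r down, they stood at places 4, 46 and 52 of the 579, so many other miRNAs had r as high as miR-29b-3p and miR-29c-3p. miR-26a-5p, which is more abundant than any miR-30 member, had r = -0.23, and miR-26b-5p had r = 0.30.

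**Figure D5:**
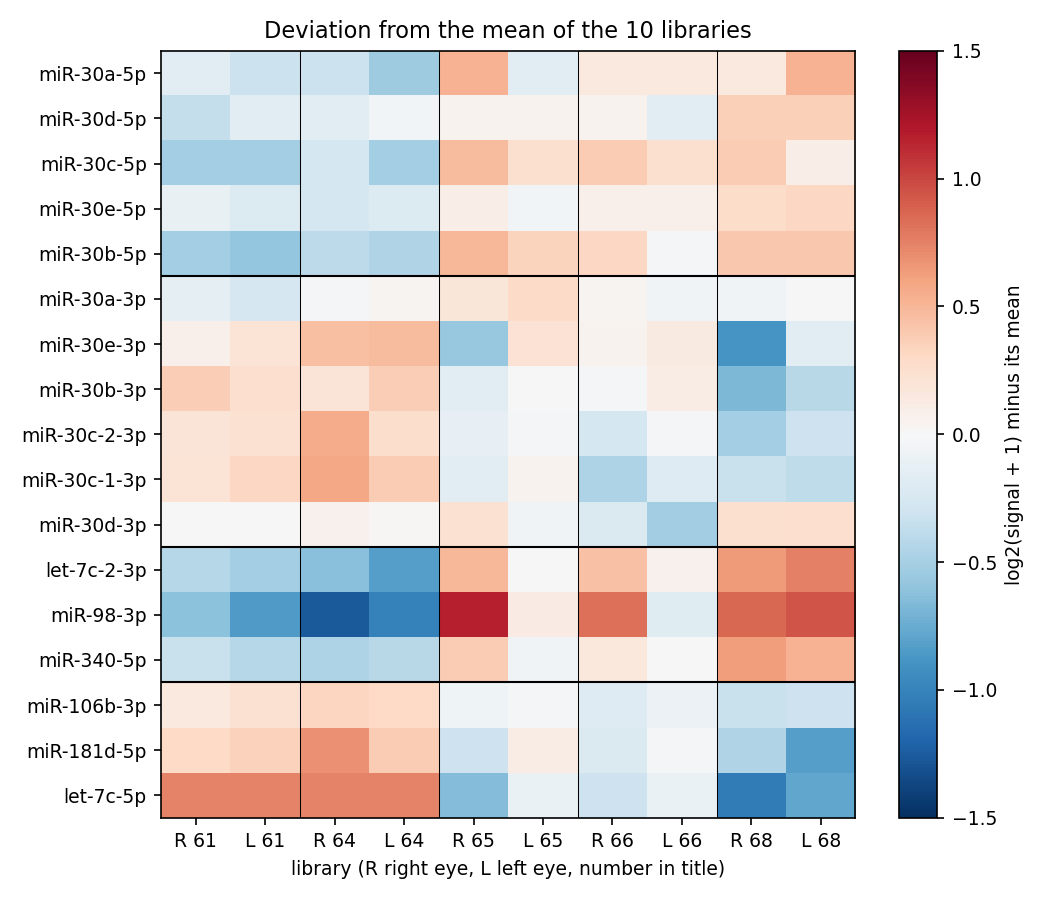
Deviation of log2(signal + 1) from its mean over the 10 libraries (colour, red above and blue below the mean) for the miR-30 5p arms, the 3p arms, and the 3 other miRNAs with the highest and the 3 with the lowest Pearson's r to the summed 5p signal, from top to bottom. Columns are right (R) and left (L) eyes by number. The 5p arms were low in numbers 61 and 64, where let-7c-5p stood at 404 k, a rank step, in all 4 eyes.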

How the data were processed

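Small RNA was sequenced from 10 samples with the TruSeq small RNA kit, per the labels' protocols. Bowtie, Partek and GRCm38 (mm10) are named in the submitters' processing notes, without versions. The authors deposited a normalised signal for 1340 miRNAs. Only 7.31% of the values above 0 were whole within 0.001, so reads could not be recovered, depth is unknown and count models were not used.

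Signals were analysed as log2(signal + 1) for the 588 miRNAs with a mean of at least 10, which understates changes of low miRNAs. Right and left eyes were compared with limma 3.58.1 (R 4.3.3), two-sided, with a mean-variance trend and Benjamini-Hochberg adjustment at 0.05 over all miRNAs. Arm ratios were fitted without the trend. The shared title number was the block, because the protocol compares an eye with its fellow eye. Deviations of same-numbered eyes correlated at 0.12, 0.45, 0.01, -0.13 and 0.28, so that pairing comes from the titles and not from the data. Nothing states separate litters, so p-values hold for these samples. Number and side were both in each main fit, so p-values rest on how right-left differences vary from number to number. Fits were tested on simulated data. Members, lists and tests were chosen with earlier results of these data known. Names were printed for members, other miR-30 arms, miRNAs of the same seed, the 3 others most and least like the summed 5p signal, and lists under discussion.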

Additional observations from a re-analysis of the deposited data

How the results depend on the processing

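Of the 588 miRNAs, 0 were called between right and left eyes in limma, also under each of 11 other settings, among them every number left out in turn. Without the replicate block the count was 0 as well, and 12 had an unadjusted p under 0.05. The direction turned for miR-30a-5p (-0.0004 to 0.26 with a number left out), miR-30d-5p (-0.0784 to 0.0258), miR-30e-5p (-0.0019 to 0.0489), miR-30a-3p (-0.0338 to 0.0207) and the miR-30a arm ratio (-0.0211 to 0.2565), and for none of the other members. Among arm ratios the count of calls between sides was 0 to 1 with a number left out, and those of miR-30a, miR-30b and miR-30e were not called. The count of miRNAs called between numbers was not stable. It was 7, but 23 with a mean signal of at least 100, 0 with no trend, 12 with median-centred values, 26 with no side term, 0 to 22 with a number left out, and 0 without right eye 68, the last chosen after seeing the data. The count of hairpins called between numbers was 17, with 0 to 20 when a number was left out and 0 without right eye 68. The cause was not tested. The mean summed 5p signal was 522 k, 492 to 550 k with a number left out and 232 k without miR-30a-5p. Deviations of same-numbered eyes correlated best with their own number in 2 of 5 left eyes and 1 of 5 right eyes. Depth is unknown, and rank steps limit what can be seen in abundant members.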
